A study of Mus musculus with 18 samples.

Results

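The genes described here are 34 interferon-induced genes of the mouse, followed across 6 groups of arrays from animals with and without the lysosomal enzyme Ppt1. With earlier results of these data known, they were taken by name as targets of type I or type II interferon, with chemokines and MHC genes left out. Their values were found through the gene symbols of the array annotation. Of the 34 genes, 32 had at least 1 probe set that carries that symbol and no other, which gave 48 of the 45101 probe sets on the array and 32 of the 18194 genes that such probe sets name. Isg15 was left without a value because its probe set also carries the symbol Gm9706, and Ifi44 was not analysed here. After the dimmest probe sets were left out, 31 genes with 41 probe sets remained among 27022 tested probe sets. Zbp1 was the member lost to that filter. The question was whether the interferon response is already at its full size at 3 months and whether it fades by 8 months.

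The study compared RNA of Ppt1 knockout mice with RNA of wild-type mice on Affymetrix mouse arrays at 3, 5 and 8 months of age, with 3 arrays in each of the 6 groups. The groups are the knockout and the wild type at each age, and the labels name no strain, allele or treatment. Ppt1 encodes palmitoyl-protein thioesterase 1, and its loss in people causes an infantile neurodegenerative storage disease. Each group had 1 male and 2 females, except the 8-month knockout, whose replicates 1 and 3 were male and whose replicate 2 was female. The labels give the tissue as both brain and cochlea. No marker of neurons, astrocytes or oligodendrocytes lay at background on most arrays, whereas 6 of 11 cochlear markers, the hair cell factor Pou4f3 and the hair cell motor Slc26a5 among them, lay at background on most arrays. The cochlear markers Coch, Myo7a and Otof lay at background on 0 of 18 arrays and reached 198, 133 and 62.7. Myo15 and Otoa lay at background on 3 and 9 arrays. Nothing in the labels states that each array of a group had its own animal, and p-values here therefore measure variation among samples that could be technical in part. Ppt1 itself read at most 23.4 on any knockout array and at least 543 on any wild-type array. The median signal of an array ranged from 43.2 to 46.1. With 3 arrays a group, their number sets the precision.

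Type I interferons bind a receptor of the chains Ifnar1 and Ifnar2, whose kinases activate a complex that contains Stat2 and Irf9. That complex binds the interferon-stimulated response element (ISRE) in the promoters of its targets, while type II interferon acts through a Stat dimer that binds the gamma-activated sequence (GAS). In the brain, microglia, astrocytes, endothelial cells and neurons can all respond, and the induced proteins block the entry, translation and spread of viruses or regulate the signal itself.

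The promoters of the members show these elements, and a few are printed because they belong to genes whose values are given in full below. RefSeq promoter windows of assembly GRCm38.p6, from 250 bases before to 50 bases after the start of the gene, were at hand for 25 of the 34 genes. An ISRE was searched as GAAANNGAAA or its reverse complement, and a GAS as TTCNNNGAA, which reads alike on both strands. The ISRE letters stood in 14 of the 25 genes (56%), against 3.99% of 27025 genes with a window. The GAS letters stood in 9 of 25 (36%), against 9.55% of all genes. In 5 genes both occurred and in 7 neither. Overlapping ISRE matches were found in 5 members, and in Bst2 and Ifitm3 an ISRE match overlapped a GAS match. A match is a description of letters and does not show that a factor binds there. In the following stretches, written from 5′ to 3′ along the strand of the gene, the ISRE letters are in capitals.

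Ifit1 (chr19:34640755-34640843, + strand): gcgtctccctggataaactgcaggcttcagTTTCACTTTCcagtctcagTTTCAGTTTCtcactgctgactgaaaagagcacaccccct
Ifit3 (chr19:34583343-34583446, + strand): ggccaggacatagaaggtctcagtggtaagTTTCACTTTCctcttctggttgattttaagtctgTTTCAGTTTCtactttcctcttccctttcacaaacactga
Gbp3 (chr3:142559969-142560044, + strand): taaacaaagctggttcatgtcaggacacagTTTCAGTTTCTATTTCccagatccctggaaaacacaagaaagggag
Oas1a (chr5:120907500-120907575, - strand): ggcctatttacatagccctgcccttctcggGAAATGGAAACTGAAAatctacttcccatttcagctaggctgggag
Bst2 (chr8:71537557-71537632, - strand): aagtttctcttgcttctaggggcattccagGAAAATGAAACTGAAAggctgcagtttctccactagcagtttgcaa
Ifitm3 (chr7:141010715-141010772, - strand): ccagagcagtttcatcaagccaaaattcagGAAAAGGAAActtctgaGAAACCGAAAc
Eif2ak2 (chr17:78882543-78882584, - strand): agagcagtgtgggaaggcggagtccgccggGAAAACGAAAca

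Ifit1 and Ifit3 each carry a pair of separate matches upstream of the start, whereas those of Gbp3, Oas1a and Bst2 overlap and form longer runs of repeats. The matches of Ifitm3 and Eif2ak2 lie just past the start. The 13 tested members with ISRE letters had a median difference between knockout and wild type of 0.92, 1.06 and 0.79 on the log2 scale at 3, 5 and 8 months. The 10 tested members with a window but without them had medians of 0.80, 0.78 and 0.71. These medians describe the members and were not tested.

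**Figure D1:**
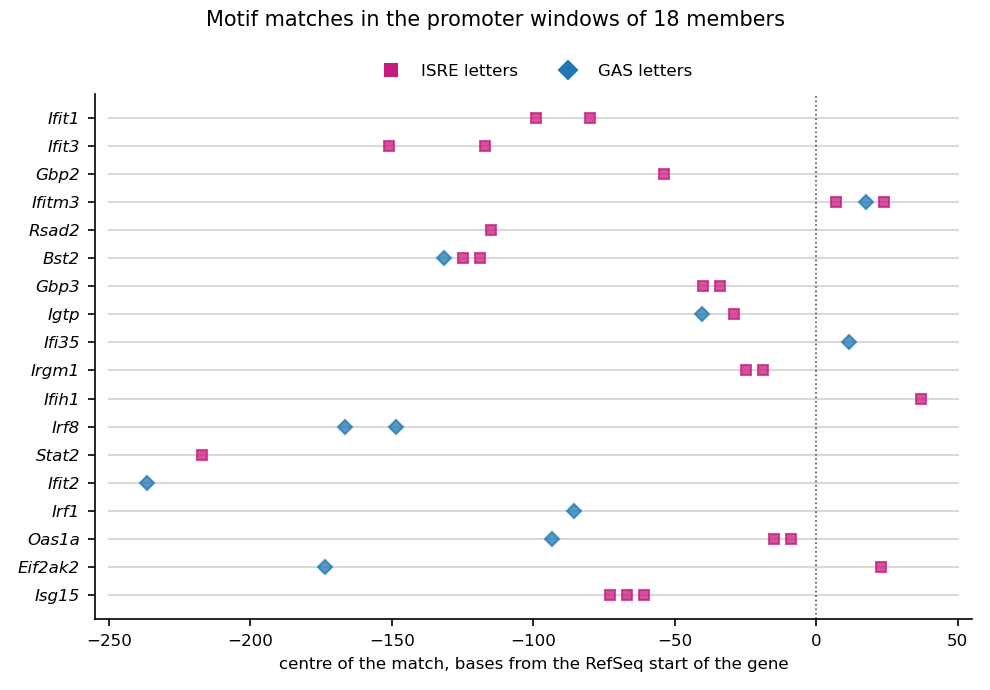
Position of ISRE letters (squares) and GAS letters (diamonds) in the promoter windows of the 18 members with a match, in bases from the start of the gene (dotted line), with the members ordered from the largest to the smallest knockout effect at 3 months and the unmeasured Isg15 last. Most ISRE matches lie before the start, and those of Ifitm3, Ifih1 and Eif2ak2 lie after it.

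Of the 31 tested interferon genes 18 or 19 rose in the knockout at each age, and 0 fell. These members were chosen with earlier results of these data known, so the share that rose is no independent test of a response. At 3 months 19 of the 31 tested members rose and 0 fell, against 0.681% of all tested probe sets that rose. At 5 months 18 of 31 rose and 0 fell (1.64% of all rose), and at 8 months 18 of 31 rose and 0 fell (5.74% of all rose). The median difference over the members was 0.92, 0.93 and 0.71 on the log2 scale at the 3 ages, whereas the median over all tested probe sets lay at 0.01, -0.01 and -0.02. Each gene is represented by its brightest probe set, differences are knockout minus wild type in log2(signal + 16) with the standard error of the fit, and a gene rose or fell where limma's adjusted p was under 0.05. Over all 41 tested probe sets of the members, 22, 22 and 21 rose. Irf7, Usp18 and Ifi27l2a passed the filter on dim probe sets only through the knockout arrays. Without them 17, 17 and 18 of 28 members rose, with medians of 0.91, 0.89 and 0.71. A stricter filter on dim probe sets left 16 members, of which 11, 10 and 11 rose, and a fit to the 8-month arrays alone, without a sex term, gave 10 at that age.

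All 3 knockout arrays lay above all 3 wild-type arrays for 27 of 31 members at 3 months, 26 at 5 months and 19 at 8 months. The same held for 9.83%, 10.2% and 11.7% of all tested probe sets. The counts of 27 and 26 include Irf7, Usp18 and Ifi27l2a, which passed the filter only through the knockout arrays. The count of 19 includes Irf7. For 17 members, Irf7 among them, the groups did not overlap at any of the 3 ages. By adjusted p, 14 members rose at all 3 ages, 9 rose at 1 or 2 of them, and 8 rose at none. The shares of all tested probe sets with these patterns over the 3 ages were not counted. Of the 14, Gbp2, Gbp3, Gbp6, Irgm1, Ifitm3, Bst2, Lgals3bp, Ifi27, Ifi35, Rtp4, Xaf1, Ifit1, Ifit3 and Irf9, 4 are GTPases and 2 are membrane restriction factors. Gbp2, Gbp6, Ifitm3, Ifi35 and Lgals3bp passed at every age in each fit without 1 array. The others of the 14 did not pass at some age in 1 or more such fits. Ifit1, Ifit3 and Bst2 did not pass at 8 months without knockout replicate 2 or without replicate 3 of that age. The 8 that rose at no age were Stat2, Irf7, Oas2, Eif2ak2, Ifih1, Ly6e, Parp14 and Samd9l.

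**Figure D2:**
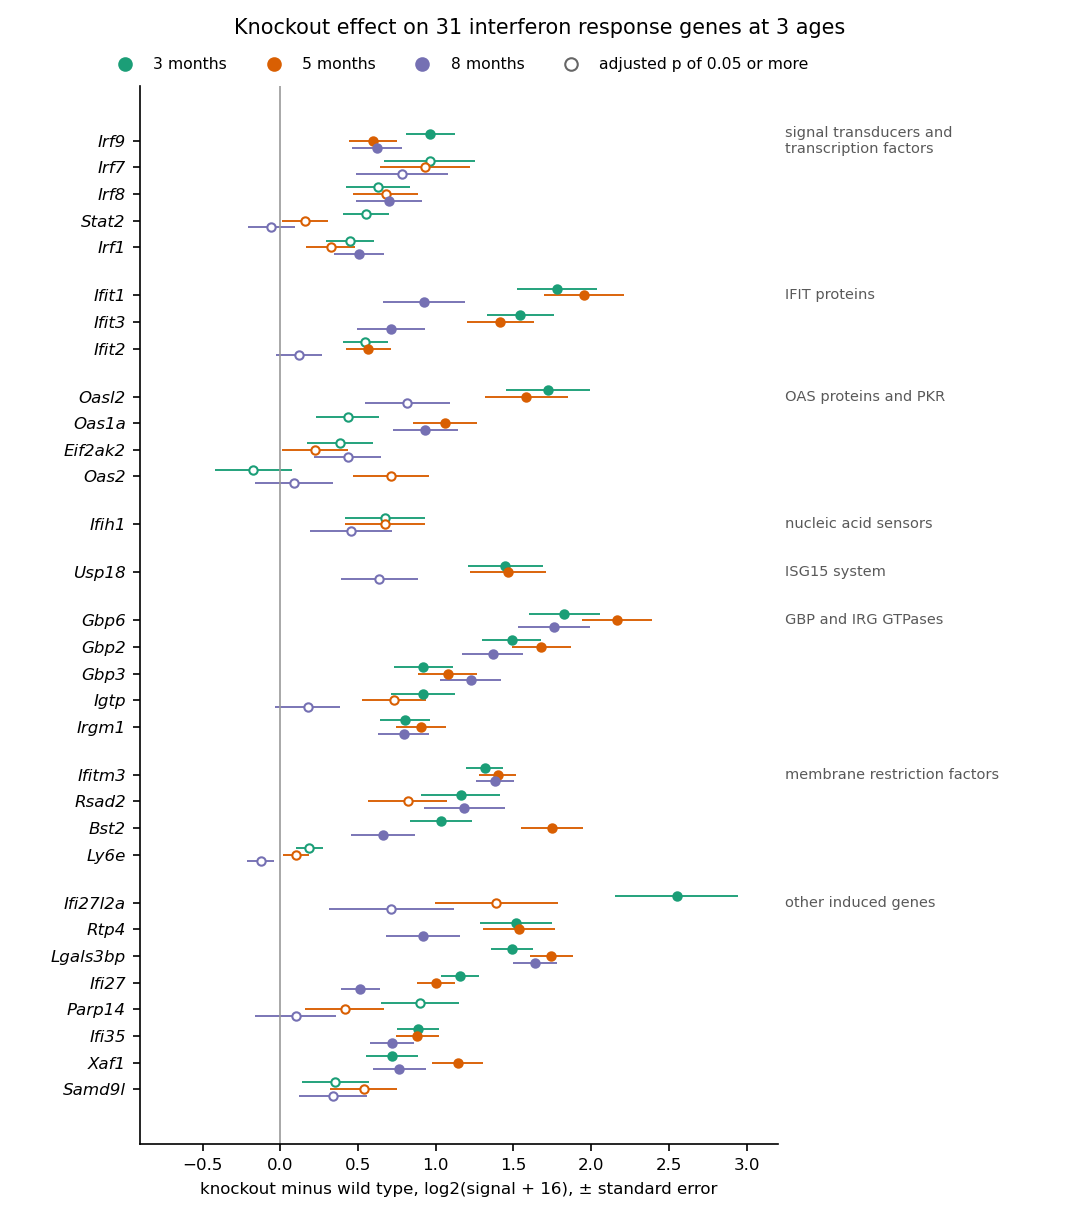
Knockout minus wild type in log2(signal + 16) at 3, 5 and 8 months for the 31 tested members, grouped by role, with the standard error of the limma fit as bars (3 arrays per group) and filled points for an adjusted p under 0.05. At 3 months 30 of 31 points lie above 0, at 5 months all 31 and at 8 months 29.

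Of the 5 signal transducers and transcription factors 1, 1 and 3 rose at 3, 5 and 8 months. Irf9, the DNA-binding part of the type I complex, was the one that rose at all ages with all arrays. Of the fits without 1 array, it passed at 5 months only in those without an 8-month knockout array or wild-type replicate 3 of 5 months. At 8 months it did not pass without wild-type replicate 2 of that age. At 3 months Irf9 read 65.6, 67.6 and 65.2 on the wild-type arrays and 144, 139 and 151 on the knockout arrays. The 5-month Irf9 signals were 77.5, 82.6 and 94.2 in the wild type and 160.1, 127 and 123 in the knockout. For Irf9 at 8 months they were 67.1, 52.1 and 63.3 and 87.4, 92.7 and 139. At each age the knockout arrays lay above the wild-type arrays, and at 8 months replicate 3 was far above the other 2 knockout arrays. Irf9 differed by 0.97 ± 0.16, 0.60 ± 0.16 and 0.62 ± 0.16 at 3, 5 and 8 months (adjusted p 0.00128, 0.0456 and 0.0134). Its partner Stat2 read 94.5, 82.9 and 96.9 in the wild type and 127, 140.4 and 158 in the knockout at 3 months, without overlap, but its difference of 0.55 ± 0.15 did not pass (adjusted p 0.086). At 5 and 8 months Stat2 differed by 0.16 ± 0.15 and -0.057 ± 0.15, and its other probe set gave 0.15, -0.067 and 0.38 at the 3 ages.

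Irf7 amplifies the production of type I interferon, and its knockout arrays lay above all wild-type arrays at each age. Its differences were 0.96 ± 0.29, 0.93 ± 0.29 and 0.78 ± 0.30 at 3, 5 and 8 months (adjusted p 0.157, 0.114 and 0.0911), and none passed. Irf1, a factor of the type II response, differed by 0.45 ± 0.16, 0.32 ± 0.16 and 0.51 ± 0.16 at 3, 5 and 8 months (adjusted p 0.264, 0.368 and 0.0422). Irf8, which is also a lineage factor of microglia, differed by 0.63 ± 0.21, 0.68 ± 0.21 and 0.70 ± 0.21 at 3, 5 and 8 months (adjusted p 0.223, 0.106 and 0.0347). Irf1 and Irf8 passed at 8 months only. At the other ages the differences of Irf8 were about the same size, and those of Irf1 were somewhat smaller. Neither passed at 8 months without knockout replicate 1 or 2, or any 1 wild-type array, of that age. Irf1 also did not pass without any 1 of the 3-month wild-type arrays or some other single arrays.

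Ifit1, which binds foreign RNA and blocks its translation, and Ifit3 were among the most responsive members. At 3 months Ifit1 read 29.5, 23.7 and 27.0 on the wild-type arrays and 115, 135 and 144 on the knockout arrays. The 5-month Ifit1 signals were 20.3, 40.9 and 22.2 in the wild type and 179.9, 124 and 152 in the knockout. For Ifit1 at 8 months they were 49.3, 49.8 and 42.5 and 49.0, 131 and 154. No wild-type array reached a knockout array at 3 or 5 months. At 8 months the knockout replicate 1 lay within the wild-type range, while replicates 2 and 3 stayed as high as the younger knockouts. Ifit1 differed by 1.78 ± 0.26, 1.96 ± 0.26 and 0.92 ± 0.26 at 3, 5 and 8 months (adjusted p 0.000411, 6.5e-05 and 0.0254).

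Ifit3 is a relative that stabilises Ifit1 in human cells. At 3 months Ifit3 read 117, 116 and 173 on the wild-type arrays and 464, 375 and 424 on the knockout arrays. The 5-month Ifit3 signals were 156, 167 and 141 in the wild type and 587, 348 and 414 in the knockout. For Ifit3 at 8 months they were 147, 207 and 152 and 223, 235 and 475. The groups did not overlap at any age, but at 8 months 2 of the 3 knockout arrays lay just above the highest wild-type array and replicate 3 was about as high as the younger knockouts. Ifit3 differed by 1.55 ± 0.21, 1.42 ± 0.21 and 0.71 ± 0.22 at 3, 5 and 8 months (adjusted p 0.000238, 0.000341 and 0.0384). Ifit2, a relative that promotes cell death, differed by 0.55 ± 0.15, 0.57 ± 0.15 and 0.12 ± 0.15 at 3, 5 and 8 months (adjusted p 0.0836, 0.0408 and 0.658). Its wild-type signal was 73.6 ± 17.2 at 3 months and 111 ± 7.84 at 8 months (SD, n = 3), close to the 125 ± 8.21 of the 8-month knockout.

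The OAS proteins sense double-stranded RNA, and with the kinase PKR 1, 2 and 1 of the 4 genes rose at 3, 5 and 8 months. Oasl2 is a relative of the OAS enzymes. At 3 months Oasl2 read 43.2, 24.8 and 11.4 on the wild-type arrays and 127, 125 and 102 on the knockout arrays. The 5-month Oasl2 signals were 23.6, 44.5 and 32.0 in the wild type and 175, 97.3 and 127 in the knockout. For Oasl2 at 8 months they were 38.2, 46.5 and 43.0 and 68.5, 70.4 and 162. The groups did not overlap at any age. At 8 months knockout replicates 1 and 2 were low and replicate 3 was as high as the younger knockouts. Oasl2 differed by 1.72 ± 0.27, 1.58 ± 0.27 and 0.82 ± 0.27 at 3, 5 and 8 months (adjusted p 0.000885, 0.00115 and 0.056).

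Oas1a makes the second messenger that activates RNase L. At 3 months Oas1a read 84.9, 54.9 and 45.4 on the wild-type arrays and 71.7, 98.1 and 92.0 on the knockout arrays. The 5-month Oas1a signals were 25.0, 50.9 and 37.4 in the wild type and 88.0, 98.8 and 95.3 in the knockout. For Oas1a at 8 months they were 54.0, 35.0 and 42.0 and 91.2, 99.2 and 100.1. The knockout arrays lay above every wild-type array at 5 and 8 months, and at 3 months the groups overlapped because wild-type replicate 1 was high. Oas1a differed by 0.43 ± 0.20, 1.06 ± 0.20 and 0.93 ± 0.21 at 3, 5 and 8 months (adjusted p 0.492, 0.00403 and 0.00529). Oas1a thus rose at 5 and 8 months.

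Oas2 is the larger enzyme of the same kind. At 3 months Oas2 read 37.9, 34.6 and 38.7 on the wild-type arrays and 33.4, 33.95 and 26.1 on the knockout arrays. The 5-month Oas2 signals were 24.5, 36.5 and 15.4 in the wild type and 48.0, 54.4 and 49.3 in the knockout. For Oas2 at 8 months they were 44.0, 31.4 and 21.2 and 19.0, 41.2 and 49.6. Its knockout arrays were below every wild-type array at 3 months and above every one at 5 months, and the groups overlapped at 8 months. Oas2 differed by -0.17 ± 0.25, 0.71 ± 0.25 and 0.087 ± 0.25 at 3, 5 and 8 months (adjusted p 0.896, 0.164 and 0.868). The change between 3 and 5 months of 0.89 ± 0.35 had an adjusted p of 0.777.

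Eif2ak2 encodes PKR, the kinase that stops translation when it meets double-stranded RNA. At 3 months Eif2ak2 read 56.2, 46.0 and 35.4 on the wild-type arrays and 62.8, 59.0 and 70.7 on the knockout arrays. The 5-month Eif2ak2 signals were 46.4, 51.7 and 49.99 in the wild type and 74.4, 59.7 and 49.0 in the knockout. For Eif2ak2 at 8 months they were 25.1, 61.3 and 49.2 and 58.5, 58.3 and 75.5. The groups overlapped at 5 and 8 months. Eif2ak2 differed by 0.39 ± 0.21, 0.22 ± 0.21 and 0.43 ± 0.22 at 3, 5 and 8 months (adjusted p 0.598, 0.715 and 0.218). The other 2 probe sets of Eif2ak2 gave 0.63 and 0.17 at 3 months, and none of the 3 passed at any age.

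Among the nucleic acid sensors, Ifih1 encodes MDA5, which detects long double-stranded RNA. At 3 months Ifih1 read 54.1, 89.9 and 26.0 on the wild-type arrays and 102, 90.1 and 85.0 on the knockout arrays. The 5-month Ifih1 signals were 69.8, 39.3 and 42.5 in the wild type and 60.5, 99.2 and 111 in the knockout. For Ifih1 at 8 months they were 50.8, 68.7 and 67.6 and 87.9, 86.8 and 96.9. The groups overlapped at 3 and 5 months and separated at 8 months. Ifih1 differed by 0.67 ± 0.26, 0.67 ± 0.26 and 0.45 ± 0.26 at 3, 5 and 8 months (adjusted p 0.34, 0.225 and 0.293). Zbp1, a sensor of Z-form nucleic acids, lay too low to be tested. Its brighter probe set read between 1.07 and 20.2 on the wild-type arrays and between 1.98 and 48.9 on the knockout arrays.

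Usp18 removes Isg15 from proteins and damps the type I receptor. At 3 months Usp18 read 24.2, 11.6 and 22.1 on the wild-type arrays and 105, 68.7 and 67.5 on the knockout arrays. The 5-month Usp18 signals were 18.4, 26.0 and 12.0 in the wild type and 81.3, 75.2 and 80.0 in the knockout. For Usp18 at 8 months they were 17.9, 35.4 and 17.8 and 32.5, 44.7 and 65.2. The knockout stood well above the wild type at 3 and 5 months, whereas at 8 months knockout replicate 1 fell below wild-type replicate 2. Usp18 differed by 1.45 ± 0.24, 1.47 ± 0.24 and 0.64 ± 0.25 at 3, 5 and 8 months (adjusted p 0.00192, 0.000898 and 0.1). At 3 and 5 months 1 of the 3 wild-type arrays of each age was at background.

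The GTPases of the GBP and IRG families attack the vacuoles of intracellular microbes and respond to type II as well as type I interferon. All 5 rose at 3 months, and 4 of 5 rose at 5 and at 8 months. At 3 months Gbp6 read 20.3, 28.9 and 27.8 on the wild-type arrays and 120.5, 131 and 143 on the knockout arrays. The 5-month Gbp6 signals were 30.5, 42.7 and 13.2 in the wild type and 188, 148 and 200.1 in the knockout. For Gbp6 at 8 months they were 44.4, 31.4 and 33.2 and 119.5, 161 and 218. The Gbp6 groups were far apart at each age. Gbp6 differed by 1.83 ± 0.23, 2.17 ± 0.23 and 1.76 ± 0.23 at 3, 5 and 8 months (adjusted p 5.21e-05, 2.72e-06 and 3.22e-05). Its other probe set gave 1.84, 1.55 and 1.12.

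Gbp3 belongs to the same family. At 3 months Gbp3 read 37.8, 63.9 and 39.4 on the wild-type arrays and 109, 89.5 and 106 on the knockout arrays. The 5-month Gbp3 signals were 56.5, 48.4 and 47.8 in the wild type and 127, 116 and 132 in the knockout. For Gbp3 at 8 months they were 34.1, 51.9 and 25.9 and 87.8, 119.7 and 109. The groups did not overlap at any age, and the 8-month wild-type arrays included the lowest readings. Gbp3 differed by 0.92 ± 0.19, 1.08 ± 0.19 and 1.22 ± 0.19 at 3, 5 and 8 months (adjusted p 0.0165, 0.00172 and 0.000287). Gbp2 differed by 1.49 ± 0.19, 1.68 ± 0.19 and 1.37 ± 0.20 at 3, 5 and 8 months (adjusted p 8.43e-05, 8.95e-06 and 9.07e-05). Irgm1, a regulator of the IRG family, differed by 0.80 ± 0.16, 0.90 ± 0.16 and 0.79 ± 0.16 at 3, 5 and 8 months (adjusted p 0.0126, 0.0019 and 0.00303). Igtp, of that family too, had differences of 0.92 ± 0.21, 0.73 ± 0.21 and 0.18 ± 0.21 at 3, 5 and 8 months (adjusted p 0.0299, 0.0696 and 0.645). Its 8-month knockout signals of 60.7, 109 and 157 spread from below to above the wild-type range.

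Of the 4 membrane restriction factors, Ifitm3 blocks the fusion of viruses with endosomes. At 3 months Ifitm3 read 414, 294 and 252 on the wild-type arrays and 811, 774 and 823 on the knockout arrays. The 5-month Ifitm3 signals were 320.4, 339 and 293 in the wild type and 945, 796 and 849.9 in the knockout. For Ifitm3 at 8 months they were 276, 353 and 311 and 850.0, 845 and 878. Every knockout array lay far above every wild-type array, and the 8-month knockout replicates were close to each other. Ifitm3 differed by 1.31 ± 0.12, 1.40 ± 0.12 and 1.38 ± 0.12 at 3, 5 and 8 months (adjusted p 8.48e-07, 1.9e-07 and 1.61e-07). The full values of Ifitm3, Bst2 and Ifi27 are given because their patterns stood out once the values had been seen.

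Bst2, or tetherin, holds budding virus at the cell surface. At 3 months Bst2 read 41.4, 43.0 and 39.5 on the wild-type arrays and 101, 114 and 90.7 on the knockout arrays. The 5-month Bst2 signals were 26.8, 24.3 and 30.3 in the wild type and 125, 140.1 and 122 in the knockout. For Bst2 at 8 months they were 33.6, 81.7 and 62.3 and 70.5, 97.9 and 119.8. The wild-type signal was lowest at 5 months and most variable at 8 months, when its replicate 2 lay above knockout replicate 1. Bst2 differed by 1.03 ± 0.20, 1.75 ± 0.20 and 0.66 ± 0.20 at 3, 5 and 8 months (adjusted p 0.00924, 9.11e-06 and 0.0388).

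Ly6e restricts coronaviruses and is abundant in many tissues without interferon. At 3 months Ly6e read 1190.2, 1054 and 1085 on the wild-type arrays and 1200.1, 1296 and 1296 on the knockout arrays. The 5-month Ly6e signals were 1069, 1115 and 968 in the wild type and 1057, 1113 and 1217 in the knockout. For Ly6e at 8 months they were 1012, 1151 and 1122 and 879.8, 997 and 1112. At 3 months the knockout arrays lay above the wild-type arrays by a small margin, and at 5 and 8 months the groups overlapped. Ly6e differed by 0.19 ± 0.09, 0.10 ± 0.09 and -0.13 ± 0.09 at 3, 5 and 8 months (adjusted p 0.473, 0.663 and 0.39). A dimmer Ly6e probe set gave -0.10, 0.19 and 0.35, the opposite course. Rsad2, or viperin, which makes a chain-terminating nucleotide, differed by 1.16 ± 0.26, 0.82 ± 0.26 and 1.18 ± 0.26 at 3, 5 and 8 months (adjusted p 0.0269, 0.112 and 0.00495), and its other tested probe set gave 0.53, -0.014 and 0.62.

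Of the remaining induced genes, Ifi27l2a had the largest difference of all members at 3 months. At 3 months Ifi27l2a read 3.44, 6.02 and 22.2 on the wild-type arrays and 121, 135 and 144 on the knockout arrays. The 5-month Ifi27l2a signals were 29.9, 41.2 and 34.5 in the wild type and 147, 103 and 107 in the knockout. For Ifi27l2a at 8 months they were 6.48, 57.9 and 55.3 and 35.3, 36.4 and 149. At 3 months 2 of the 3 wild-type arrays lay at background, and the knockout was far above. At 8 months wild-type replicates 2 and 3 had come up and exceeded knockout replicates 1 and 2, while knockout replicate 3 was as high as the 3-month arrays. Ifi27l2a differed by 2.55 ± 0.40, 1.39 ± 0.40 and 0.71 ± 0.40 at 3, 5 and 8 months (adjusted p 0.000885, 0.0756 and 0.279).

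Ifi27, its relative in the mitochondrial and nuclear membranes, changed with less spread. At 3 months Ifi27 read 298, 242 and 238 on the wild-type arrays and 592, 542 and 658 on the knockout arrays. The 5-month Ifi27 signals were 290.3, 319 and 272 in the wild type and 655, 544 and 614 in the knockout. For Ifi27 at 8 months they were 293, 403 and 404 and 489.5, 509.9 and 584. The groups did not overlap at any age, and at 8 months the lowest knockout array was closer to the highest wild-type array than before. Ifi27 differed by 1.16 ± 0.12, 1.00 ± 0.12 and 0.51 ± 0.12 at 3, 5 and 8 months (adjusted p 6.63e-06, 2.33e-05 and 0.00977). A further Ifi27 probe set gave 1.22, 1.01 and 0.60.

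Lgals3bp encodes a secreted glycoprotein that binds galectins. At 3 months Lgals3bp read 85.7, 99.6 and 92.1 on the wild-type arrays and 301, 289 and 276 on the knockout arrays. The 5-month Lgals3bp signals were 102, 84.0 and 81.6 in the wild type and 352, 308 and 348 in the knockout. For Lgals3bp at 8 months they were 109, 148 and 108 and 433, 472 and 326. The groups were far apart, and at 8 months knockout replicate 3 was the lowest of its group. Lgals3bp differed by 1.49 ± 0.14, 1.74 ± 0.14 and 1.64 ± 0.14 at 3, 5 and 8 months (adjusted p 8.97e-07, 4.72e-08 and 9.59e-08). Samd9l, an antiviral factor that restricts translation, passed at no age. At 3 months Samd9l read 79.0, 52.0 and 49.5 on the wild-type arrays and 91.9, 105 and 51.4 on the knockout arrays. The 5-month Samd9l signals were 56.3, 71.7 and 77.2 in the wild type and 96.8, 103 and 119 in the knockout. For Samd9l at 8 months they were 55.4, 73.6 and 89.1 and 77.2, 94.3 and 114. Its groups overlapped at 3 and 8 months and separated at 5 months. Samd9l differed by 0.35 ± 0.22, 0.54 ± 0.22 and 0.34 ± 0.22 at 3, 5 and 8 months (adjusted p 0.647, 0.251 and 0.351).

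Rtp4, an interferon-induced chaperone of receptors, differed by 1.52 ± 0.23, 1.54 ± 0.23 and 0.92 ± 0.24 at 3, 5 and 8 months (adjusted p 0.000821, 0.000341 and 0.0148). Its 8-month knockout arrays read 73.2, 97.6 and 209, so that replicate 3 alone was as high as the younger knockouts. Ifi35 differed by 0.89 ± 0.14, 0.88 ± 0.14 and 0.72 ± 0.14 at 3, 5 and 8 months (adjusted p 0.00087, 0.000458 and 0.00192), while another of its 3 probe sets gave 0.27, 0.18 and 0.067. Xaf1, which promotes apoptosis, differed by 0.72 ± 0.17, 1.14 ± 0.17 and 0.77 ± 0.17 at 3, 5 and 8 months (adjusted p 0.0383, 0.000227 and 0.00518). Parp14, an ADP-ribosyltransferase, had differences of 0.90 ± 0.25, 0.41 ± 0.25 and 0.10 ± 0.26 at 3, 5 and 8 months (adjusted p 0.112, 0.508 and 0.854), which did not pass.

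**Figure D3:**
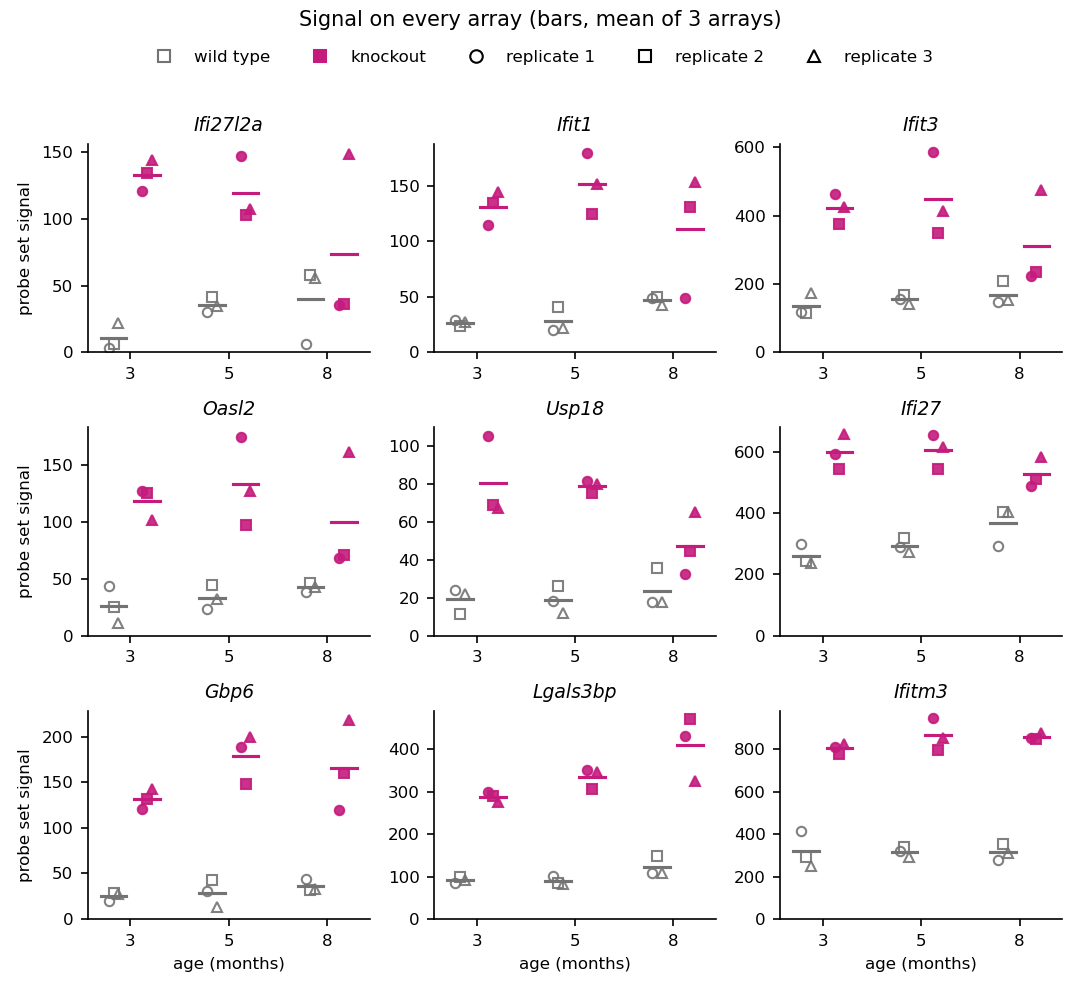
Probe set signal on each of the 18 arrays for 9 members against age, with wild type in open grey and knockout in filled symbols, the symbol shape giving the replicate and the bar the mean of 3 arrays. Ifitm3, Gbp6 and Lgals3bp stay apart at 8 months, whereas for Ifi27l2a, Ifit3 and Oasl2 the 8-month knockout replicates 1 and 2 lie low and replicate 3 lies high.

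No member's effect was shown to change from 3 to 5 months. The difference between the effects at these ages had a median of 0.02 over the members, with 16 above and 15 below 0. Without 1 array at a time that median ran from -0.086 to 0.092. In limma's test 0 members passed (0% of all tested probe sets passed; 3 members had an unadjusted p under 0.05). The effect was largest at 3 months for 12 members, at 5 months for 14 and at 8 months for 5.

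With all arrays 21 of 31 members had a smaller difference at 8 months than at 3 months, and no member's change passed. The change of the knockout effect from 3 to 8 months was below 0 for 21 of 31 members, with a median of -0.18 against -0.02 over all tested probe sets. Without knockout replicate 1 of 8 months it was below 0 for 16 and above 0 for 15, with a median of -0.057. Without wild-type replicate 3 of 3 months the median was -0.11, and without 1 of the other arrays it ran from -0.30 to -0.15. Of the members 0 passed in limma's test (1.04% of all tested probe sets passed), and 10 were lower with an unadjusted p under 0.05. The 21 include Irf7, Usp18 and Ifi27l2a, which passed the filter only through the knockout arrays, and the 10 include Usp18 and Ifi27l2a. Over the other 28 members the median was -0.14, and 0 passed. Against 5 months the effect at 8 months was below 0 for 25 of 31, with a median of -0.23, and 0 passed (0% of all passed; 6 members were lower with an unadjusted p under 0.05). Both comparisons use the same 8-month arrays. Ifi27 came nearest to the threshold, at -0.64 ± 0.17, adjusted p 0.0786. Larger but less certain changes were seen for Ifi27l2a (-1.84 ± 0.57, adjusted p 0.119), Oasl2 (-0.90 ± 0.38, adjusted p 0.275), Ifit1 (-0.86 ± 0.37, adjusted p 0.286) and Ifit3 (-0.83 ± 0.31, adjusted p 0.201). At the other end stood Oas1a (0.50 ± 0.29, adjusted p 0.453), Gbp3 (0.31 ± 0.27, adjusted p 0.655), Oas2 (0.26 ± 0.35, adjusted p 0.795) and Lgals3bp (0.15 ± 0.20, adjusted p 0.793). Gbp6 (-0.067 ± 0.32, adjusted p 0.952) and Ifitm3 (0.066 ± 0.17, adjusted p 0.904) had values near 0. The roles differed in the same descriptive sense. The IFIT proteins had a median of -0.83, the GTPases of -0.067, and the membrane restriction factors of -0.14.

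The change of effect was split into that of each genotype. From 3 to 8 months the knockout changed by a median of -0.04 over the members, with 13 above and 18 below 0, and the wild type by 0.19. Without knockout replicate 1 of 8 months the knockout median was 0.042, with 18 above and 13 below 0. The wild-type median ran from 0.14 to 0.32 without 1 array at a time, the latter without wild-type replicate 1 of 8 months. With all arrays, among the 21 members with a smaller effect at 8 months, 12 were lower in the knockout and higher in the wild type, 5 were higher in both and 4 lower in both. In the knockout Lgals3bp rose by 0.48 ± 0.14 (adjusted p 0.0477), and Stat2 and Ly6e fell, with -0.53 ± 0.15 (adjusted p 0.0399) and -0.33 ± 0.09 (adjusted p 0.0295). These 3 of 31 members stand against 5.62% of all tested probe sets. The count was 0 without any 1 of the 3-month knockout arrays or without 8-month knockout replicate 1 or 2, and 1 without wild-type replicate 1 of 3 months. In the wild type 0 members passed (0.0296% of all tested probe sets), and 7 were higher with an unadjusted p under 0.05, among them Ifi27 (0.47 ± 0.12), Ifit2 (0.52 ± 0.15) and Gbp2 (0.51 ± 0.19).

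The arrays of 8 months set how many members passed in the change of effect. Relative to the wild-type mean of its age, the median over the 31 members was 0.92, 0.99 and 0.91 on the 3-month knockout arrays and 1.02, 0.86 and 0.96 on the 5-month arrays. On the 8-month knockout arrays it was 0.39, 0.64 and 0.96. Replicate 3 was the highest of these 3 arrays for 25 of 31 members, and replicate 1 the lowest for 23. Without replicate 3 the change of the knockout effect from 3 to 8 months passed for 8 members, all lower, while 7.28% of all probe sets then passed. These were Ifi27l2a at -2.41 ± 0.45 (adjusted p 0.00194), Oasl2 at -1.20 ± 0.35 (adjusted p 0.0392), Ifit1 at -1.13 ± 0.34 (adjusted p 0.049), Ifit3 at -1.13 ± 0.25 (adjusted p 0.00693), Igtp at -1.01 ± 0.25 (adjusted p 0.0159), Rtp4 at -0.96 ± 0.25 (adjusted p 0.0209), Ifi27 at -0.71 ± 0.17 (adjusted p 0.0154) and Ly6e at -0.40 ± 0.11 (adjusted p 0.0335). Ifi27l2a had passed the filter on dim probe sets only through the knockout arrays and lay at background on 2 of the 3 wild-type arrays of 3 months, so its value has no exact size. Among the 28 members above the filter on the wild-type arrays, 7 passed. Against 5 months 4 members then passed, Ifit1, Ifit3, Bst2 and Rtp4, all lower (4.02% of all probe sets). Without replicate 3, 15 of 31 members rose at 8 months with a median of 0.52 (19.9% of all probe sets then passed in either direction). From 3 to 8 months in the knockout, 1 member then rose and 7 fell, against 1 and 2 with all arrays (15.9% of all probe sets then passed in either direction, against 5.62%). Without replicates 1 and 2 the 8-month knockout is 1 array, whose spread is assumed to be that of the other groups. In that fit 13 rose at 8 months with a median of 0.98 (1.84% of all probe sets passed in either direction), and the change of effect from 3 to 8 months had a median of -0.08 with 0 members passing. Without wild-type replicate 1 of 8 months 2 members passed in that change, Ifi27 and Ifi27l2a, and with array weights 3 passed. Leaving out wild-type replicate 1 of 8 months left 10 members that rose at that age.

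**Figure D4:**
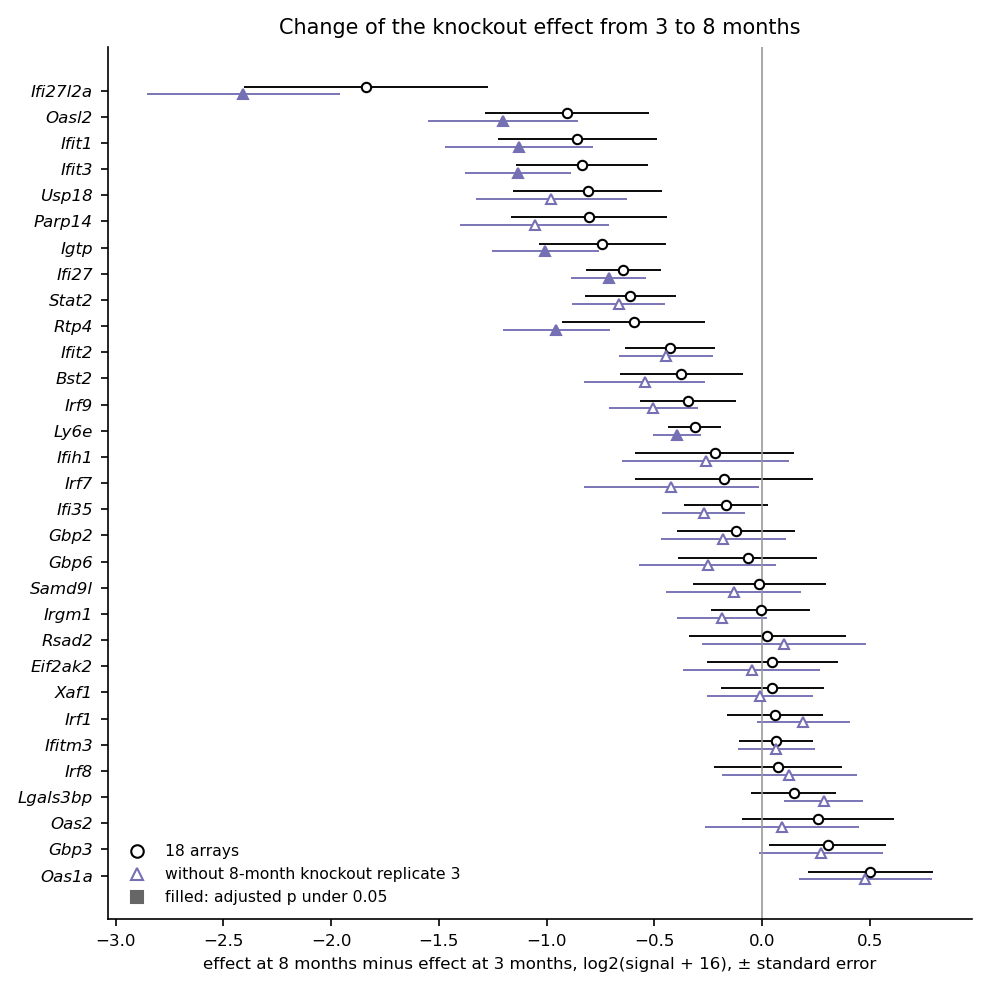
Effect at 8 months minus effect at 3 months in log2(signal + 16) for the 31 members, with the standard error, from all 18 arrays (circles) and without the 8-month knockout replicate 3 (triangles). With all arrays no point is filled, and without that array 8 are filled (adjusted p under 0.05), all below 0.

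The same array stood apart in the opposite sense for markers of all myeloid cells and of astrocytes. The median over 10 markers of all myeloid cells was 1.36, 1.62 and 1.00 above the wild-type mean on the 8-month knockout replicates 1, 2 and 3, and replicate 3 was the lowest for 8 of 10. Over 10 astrocyte markers it was 0.78, 0.70 and 0.33, again with replicate 3 lowest for 8 of 10. Over 9 markers of homeostatic microglia it was -0.25, -0.043 and -0.33, with replicate 3 lowest for 4 of 9 and highest for 3. On the 5-month knockout arrays the myeloid median was 1.21, 1.32 and 1.33 and the astrocyte median 0.28, 0.30 and 0.28. On the first principal component of all tested probe sets, the main axis of variation among arrays, 8-month knockout replicate 3 scored 9.86. Replicates 1 and 2 scored 50.7 and 45.6, and the 5-month knockout arrays 17.7, 12.3 and 11.1. The spike-in controls of 8-month knockout replicate 3 averaged 0.433 above their medians on the log2 scale, against -0.202 to 0.202 on the other arrays. The ratio of 5-prime to 3-prime actin probe sets, a sign of RNA quality, was 0.482, 0.448 and 0.432 on 8-month knockout replicates 1, 2 and 3. It was 0.501 to 0.525 in the 8-month wild type. Replicates 1 and 3 are both male. The part of the spike-in level, the actin ratio, the first principal component or these cell markers in the interferon values was not tested.

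**Figure D5:**
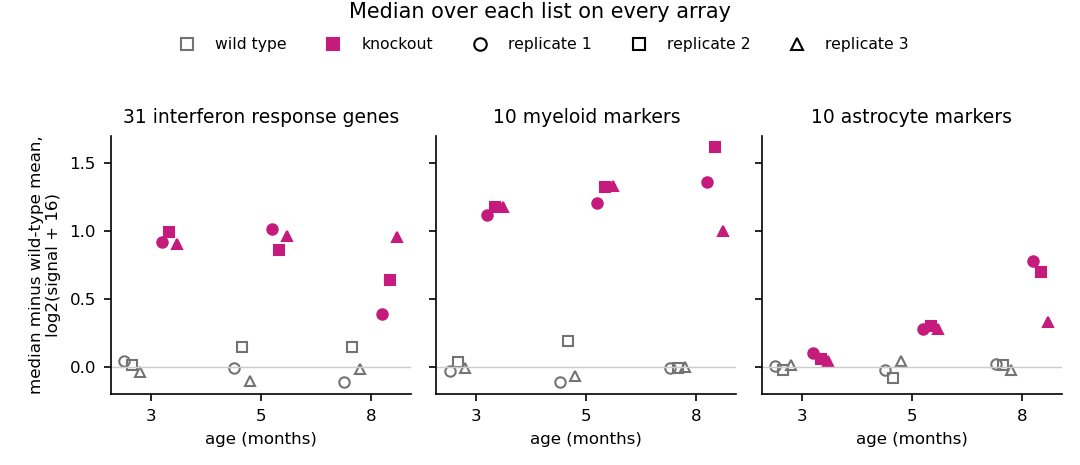
Median over each list of the difference from the wild-type mean of the same age, in log2(signal + 16), on each of the 18 arrays for the 31 members, 10 myeloid and 10 astrocyte markers. The 8-month knockout replicate 3 (triangle) is the highest of its group for the interferon genes, at 0.96, and the lowest for the myeloid (1.00) and astrocyte (0.33) markers.

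The genes upstream of the members were taken by role. Of 18 interferon and cytokine ligands listed, 11 had a probe set and 0 passed the filter. At background on most arrays were 9 of the 11, among them Ifna2 on 18 of 18 arrays and Ifng on 17 of 18, with at most 22.9 for Ifng. Ifnb1 lay at background on 7 of 18 arrays and reached 33.3 at most. Of 5 tested receptor chains 4 passed at no age, among them both chains of the type I receptor, Ifnar1 and Ifnar2. The 3-month signals of Ifnar1 were 112 ± 14.1 in the wild type and 135 ± 7.80 in the knockout (SD, n = 3). The chain Il10rb, shared by type III interferon and interleukin receptors, rose at 8 months by 0.54 ± 0.15 (adjusted p 0.0182). At that age 5.74% of all tested probe sets rose. Receptors for type II interferon differed little, with Ifngr1 at -0.14 ± 0.18, 0.28 ± 0.18 and 0.038 ± 0.18 at 3, 5 and 8 months.

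Of 12 tested signalling genes 0, 1 and 4 rose at 3, 5 and 8 months and 0 fell. Among all 27022 tested probe sets 0.681%, 1.64% and 5.74% rose at these ages, and 74, 153 and 1597 fell. Stat3, which transmits interleukin signals, differed by 0.29 ± 0.14, 0.84 ± 0.14 and 0.96 ± 0.14 at 3, 5 and 8 months (adjusted p 0.503, 0.000851 and 0.000126). Socs3, the inhibitor that Stat3 induces, differed by 0.22 ± 0.40, 0.71 ± 0.40 and 2.00 ± 0.40 at 3, 5 and 8 months (adjusted p 0.924, 0.456 and 0.0026), with signals of 374, 238 and 45.1 on the 8-month knockout arrays. The phosphatase Ptpn11 and the corepressor Irf2bp2 rose at 8 months by 0.49 ± 0.11 and 0.78 ± 0.20. Of 18 tested genes of nucleic acid sensing 0, 2 and 4 rose and 1 fell at each age, beside the same shares of all probe sets. The gene that fell was Rnaseh2c, a subunit of the enzyme that removes ribonucleotides from DNA, with -0.50 ± 0.10, -0.39 ± 0.10 and -0.54 ± 0.10 at 3, 5 and 8 months (adjusted p 0.00799, 0.0295 and 0.000962). The double-stranded RNA receptor Tlr3 differed by 0.60 ± 0.16, 0.69 ± 0.16 and 0.90 ± 0.17 at 3, 5 and 8 months (adjusted p 0.0941, 0.0227 and 0.00123). Trim25, the ligase that activates RIG-I, differed by 0.43 ± 0.17, 0.95 ± 0.17 and 0.57 ± 0.17 at 3, 5 and 8 months (adjusted p 0.345, 0.00166 and 0.0319), and the adaptor Myd88 rose at 8 months by 0.54 ± 0.14.

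A list of 28 other tested interferon-induced genes, also chosen with earlier results of these data known, was compared beside the members. Of these 5, 8 and 3 rose at 3, 5 and 8 months and 0 fell, with medians of 0.39, 0.42 and 0.30. Of all tested probe sets 0.681%, 1.64% and 5.74% rose at these ages. Their change of effect from 3 to 8 months was below 0 for 21 of 28, with a median of -0.16, and 0 passed in limma's test (3 were lower with an unadjusted p under 0.05). Parp12, an antiviral ADP-ribosyltransferase, rose at all 3 ages, by 0.61 ± 0.15, 0.84 ± 0.15 and 0.74 ± 0.15 at 3, 5 and 8 months (adjusted p 0.0449, 0.00161 and 0.00268). The GTPase Gbp7 differed by 1.18 ± 0.21, 0.99 ± 0.21 and 0.37 ± 0.22 at 3, 5 and 8 months (adjusted p 0.00398, 0.0111 and 0.292). Psmb8, a subunit of the immunoproteasome, differed by 0.63 ± 0.18, 0.97 ± 0.18 and 0.70 ± 0.18 at 3, 5 and 8 months (adjusted p 0.127, 0.00301 and 0.0159). Ifi47, another GTPase, differed by 0.22 ± 0.27, 1.44 ± 0.27 and 0.36 ± 0.28 at 3, 5 and 8 months (adjusted p 0.872, 0.00373 and 0.457).

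Markers of myeloid cells rose at the same ages as the interferon genes. In bulk RNA, more cells of a type and more RNA per cell cannot be told apart. At 3, 5 and 8 months 0.681%, 1.64% and 5.74% of all tested probe sets rose. Of 10 markers of all myeloid cells 9, 10 and 9 rose at these ages. Their summed signal was 3833 to 3948, 5334 to 5671 and 5293 to 9495 on the knockout arrays of the 3 ages, and 1598 to 1678, 1799 to 2236 and 2462 to 2518 on the wild-type arrays. Tyrobp, a myeloid signalling adaptor, differed by 1.53 ± 0.15, 1.88 ± 0.15 and 1.90 ± 0.15 at 3, 5 and 8 months (adjusted p 1.33e-06, 3.96e-08 and 2.5e-08). Of 9 markers of homeostatic microglia 0 passed at 3 and 5 months, and 1 rose and 2 fell at 8 months. Among all 27022 tested probe sets 1550 rose and 1597 fell at 8 months. Of 10 astrocyte markers 2, 5 and 9 rose at the 3 ages. In the change of effect from 3 to 8 months 3 of them, Gfap, Aqp4 and Gjb6, passed, all higher (1.04% of all tested probe sets passed). The astrocyte sum was 21500 to 22111, 27052 to 27548 and 28382 to 34163 in the knockout and at most 20946 in the wild type. At 8 months the median difference was 1.36 for the myeloid and 0.63 for the astrocyte markers, against 1.27 and 0.29 at 5 months. The interferon genes had 0.71 and 0.93 at the same ages.

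Of 7 T cell markers with a probe set 4 lay at background on most arrays, Cd3d, Cd3e, Cd3g and Cd2, on 16, 13, 14 and 14 of 18. Cd8a and Cd4 lay at background on 7 and 4 arrays and reached 43.7 and 32.1 at most. Thy1, which neurons also express, made up most of the T cell sum and was at background on none. Of 5 NK cell markers Ncr1, Gzmb and Nkg7 lay at background on 14, 14 and 12 arrays, Gzma on 7 and Prf1 on 0, with at most 99.9 for Prf1. The NK cell sum was 81.4 to 109, 89.5 to 115 and 61.0 to 132 on the knockout arrays of the 3 ages, and 99.4 to 123, 65.7 to 124 and 84.2 to 111 on the wild-type arrays, so the groups overlapped. Prf1 differed by -0.034 ± 0.27, 0.44 ± 0.27 and 0.13 ± 0.27 at 3, 5 and 8 months (adjusted p 0.987, 0.504 and 0.805). Beside 0.681%, 1.64% and 5.74% of all tested probe sets, 0, 1 and 2 of 4 tested markers of monocytes and border macrophages rose. They were Ms4a7, which differed by 0.75 ± 0.36, 1.88 ± 0.36 and 2.27 ± 0.37 at 3, 5 and 8 months (adjusted p 0.504, 0.00388 and 0.000347), and Mrc1, which rose at 8 months. The monocyte receptor Ccr2 lay at background on 9 of 18 arrays. The sum of 4 B cell markers was 141 to 782 on the 8-month knockout arrays and 400 to 453 on those of the 8-month wild type. Of these markers Ighm reached 740, whereas Cd79a, Cd79b and Ms4a1 reached 29.3, 18.0 and 23.5 and lay at background on 9, 14 and 9 arrays. The part of cell number in the interferon gene differences was not tested.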

How the data were processed

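RNA of 18 samples was measured on Affymetrix mouse arrays, 1 per sample, grouped by the genotype and age in the labels, which also give sex. Replicate numbers follow accession order, since each label number belongs to 1 sample. The authors deposited linear intensities per probe set, with a mean of 150 on every array once the lowest and highest 2% were trimmed. The software behind them is not given in the sources used here. A probe set counted as at background where its intensity was at or below the 95th percentile of 27 bacterial control probe sets of that array, which lay between 9.24 and 19.2.

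Intensities were analysed as log2(signal + 16), so fold changes of dim genes are understated. After removal of 64 controls, probe sets in the dimmest 40% by mean were dropped. A linear model of 6 groups and sex was fitted with limma 3.58.1 in R 4.3.3 (eBayes with a variance trend). P-values were two-sided and adjusted by the Benjamini-Hochberg method over 27022 probe sets at 0.05. Genes were named from probe sets with 1 symbol, 22963 of those tested.

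The members and lists were chosen with earlier results of these data known. Full values are given for the members with the 4 largest and 4 smallest effects at 3 months, the 4 most positive and 4 most negative changes of effect by 8 months, and 1 or more of each role. Of other pathway lists, up to 4 passing genes with the smallest p are named. Sequences come from RefSeq promoter tables of GRCm38.p6. The model was checked on simulated data.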

Additional observations from a re-analysis of the deposited data

How the results depend on the processing

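No paired analysis was possible because each sample's label number is its own, and the replicate numbers were given in accession order. Array number and signal over background limit the dim members, 3 of which passed the filter through knockout arrays alone. Leaving out 1 array at a time, members called higher numbered 14 to 20 at 3 months, 16 to 20 at 5 months and 10 to 18 at 8 months, against 19, 18 and 18. Members whose effect changed numbered 0 in every such fit from 3 to 5 months, 0 to 4 from 5 to 8 months and 0 to 8 from 3 to 8 months. The 8 and the 4 came without the 8-month knockout replicate 3, and 2 passed from 3 to 8 months without wild-type replicate 1 of 8 months. The change with age within the knockout gave 0 to 8 calls against 3, and that in the wild type 0 in every such fit. It gave 0 without any 3-month knockout replicate or 8-month knockout replicate 1 or 2, and 1 without wild-type replicate 1 of 3 months. With the lowest 60% of probe sets left out, 16 members were tested and 11, 10 and 11 were higher at the 3 ages. With only the groups compared and no sex term, 10 were higher at 8 months and 0 changed within the knockout. That last count was 1 without a filter, 1 without a variance trend, 1 with the median over probe sets, 7 with array weights and 0 without 8-month knockout replicates 1 and 2. Array weights also gave 3 members with a changed effect from 3 to 8 months. The causes were not tested.

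Of 1700 values of single members under alternatives, 1613 kept direction and side of the threshold, 38 no longer passed, 23 newly passed and 26 changed sign, 0 of which passed. The change of effect from 3 to 8 months turned sign for Samd9l with quantile normalization (0.0058), without 8-month knockout replicates 1 and 2 (0.24) and without 1 array (range -0.26 to 0.15). For Gbp6 it did so with a pseudocount of 64 (0.047), without those 2 replicates (0.32) and without 1 array (-0.25 to 0.12). Without those 2 replicates Lgals3bp gave -0.18 and Irf9 0.012. With the median over probe sets Eif2ak2 gave -0.10 and Ly6e 0.068. Without 1 array Eif2ak2 ranged from -0.32 to 0.23 and Ifih1 from -0.58 to 0.17. The difference at 8 months changed sign for Ly6e with the median over probe sets (0.11) and without the 2 replicates (0.053), and for Oas2 without 1 array (-0.080 to 0.35).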
